A study of Arabidopsis thaliana with 4 samples.

Results

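The evening complex, GIGANTEA (GI) and the ZEITLUPE family were followed as 8 genes, ELF3, ELF4, LUX, BOA (also called NOX), GI, ZTL, FKF1 and LKP2, chosen by their locus codes. All 8 were found among the 32627 genes on the arrays, as 10 of 37118 transcript models. LUX and ZTL had 2 models each, and each gene is given by the model with its highest mean log2 value. Total RNA of Arabidopsis thaliana seedlings was hybridised to 4 one-colour arrays labelled with Cy3, 2 for wild-type Col-0 and 2 for 35S::JMJ30-HA in the same background. The transgene carries the histone demethylase gene JMJ30 with an HA tag behind 35S, a viral promoter active in most plant cells. Both groups were untreated soil-grown plants harvested 13 days after germination at 22 °C in 16 hours of light and 8 hours of dark. The labels describe the transgenic plants as late flowering and the wild type as normal. They give neither the number of transgenic lines, the number of seedlings per sample nor the hour of day at harvest. The replicates are called biological in the labels. The design text names independent sets of both genotypes, so arrays with replicate number 1 are called set 1 and those with number 2 set 2. What the arrays of a set shared is not stated.

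These genes form the evening arm of the plant circadian clock and its link to day length. ELF3 is the scaffold of the evening complex, ELF4 a small protein that binds it, and LUX the MYB-like factor that brings the complex to DNA, with BOA as its close relative. The complex represses genes such as PRR9, PRR7 and PIF4 at night. GI is a large plant-specific protein that stabilises the F-box protein ZTL in the light. FKF1 and LKP2 are relatives of ZTL, and all 3 carry a blue-light-sensing LOV domain and mark proteins for degradation through an SCF ubiquitin ligase. ZTL acts on the clock proteins TOC1 and PRR5, whereas FKF1 with GI removes the CDF repressors of CO, the activator of the floral signal FT in long days. Transcripts of GI, ELF4, LUX and FKF1 are known to rise and fall over the day, while that of ZTL is known to change little.

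The array values are normalised intensities on a linear scale. Median intensity was 25.6 to 26.6 per array. The distribution of mean log2 values over genes had 2 modes and between them a valley at an intensity of 14.3. A mean above it was found for 17790 genes, all 8 genes of this pathway included. JMJ30 (AT3G20810), the gene placed under the 35S promoter, read 705 and 567 on the wild-type arrays and 1054 and 721 on the 35S::JMJ30-HA arrays, in the order of set 1 and set 2. JMJ30 had 3 transcript models, and only the one with the highest mean log2 value is given. The transgenic arrays lay above the wild-type arrays, by 0.58 in set 1 and 0.35 in set 2 on the log2 scale. The difference of 0.46 ± 0.27 (SE) over both was not called by limma (adjusted p = 1.0). With the replicate number in the fit, the SE was 0.17 and the interval ran from 0.0093 to 0.92 before adjustment. In that fit limma gave an unadjusted p of 0.047 and an adjusted p of 0.83, so JMJ30 was again not called. All 5 green tissue markers lay above the valley, with summed intensities of 5535 and 6041 on the wild-type arrays and 5190 and 5624 on the 35S::JMJ30-HA arrays. None of 4 seed markers (OLEO1 and others), 4 root markers (PRP3 and others) or 3 flower markers (AP3 and others) had a mean above the valley, and their single values ran from 2.87 to 10.5.

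Between the genotypes, none of the 8 genes was told apart. Limma called 0 of 8 at an adjusted p below 0.05, where it called 0 of all genes tested (0%). At an unadjusted p under 0.05 it again found 0 of 8, against 2.99% of all genes and 79 of the 17790 genes above the valley. The log2 differences, as transgenic minus wild type, ran from -0.32 for FKF1 to 0.22 for BOA, 4 higher and 4 lower, with a median of 0.00053. The median over all genes was -0.0039. The arrays of the genotypes overlapped for all 8, while 26% of all genes had arrays of one genotype wholly above the other. Of the 17790 genes above the valley, 1808 had the transgenic arrays wholly higher and 1852 wholly lower. The intervals below still hold sizeable differences for several genes. They count the gap between the sets as spread, and with the replicate number in the fit they narrow, for ELF4 to -0.40 to 0.46 and for BOA to -0.26 to 0.70. In bulk tissue, fewer cells that express a gene and less RNA per cell cannot be told apart.

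**Figure D1:**
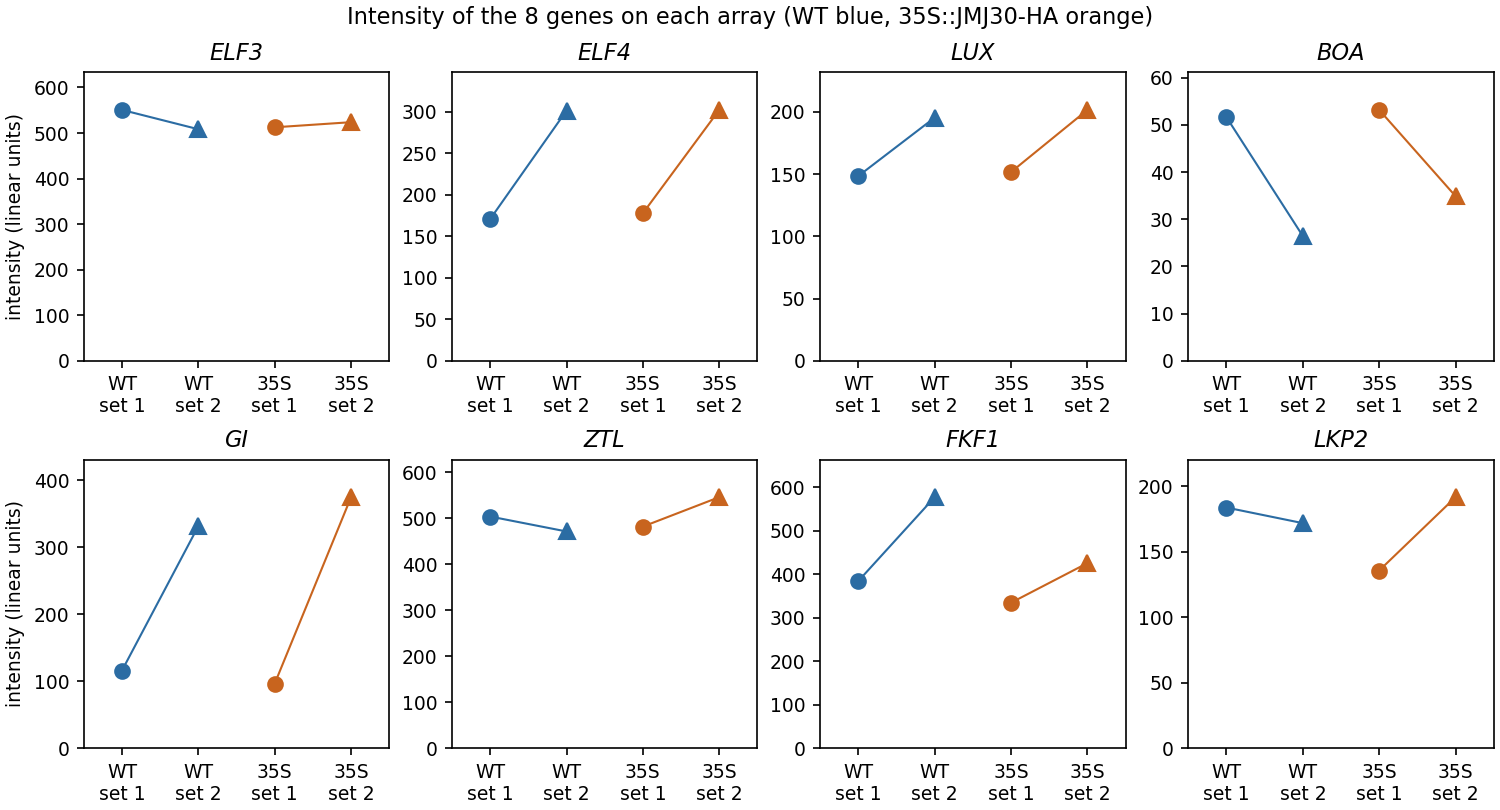
Intensity (linear units, each axis from 0) of the 8 genes on the 4 arrays, with the wild type (WT) in blue, 35S::JMJ30-HA (35S) in orange, circles for set 1 and triangles for set 2, and lines joining the arrays of a genotype. GI reads 96.3 to 116 in set 1 and 331 to 374 in set 2, while ELF3 stays between 508 and 551 on all 4 arrays.

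Within the evening complex, ELF3 (AT2G25930) varied least over the arrays. It read 551 and 508 on the wild-type arrays and 513 and 524 on the 35S::JMJ30-HA arrays, in the order of set 1 and set 2, a span of 0.12 on the log2 scale. The transgenic arrays lay between the wild-type arrays. The genotype difference was -0.030 ± 0.18 (SE), with a 95% interval from -0.50 to 0.44 before adjustment (limma adjusted p = 1.0). The difference between the sets, as set 2 minus set 1, was -0.042 ± 0.17, with an interval from -0.48 to 0.40.

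ELF4 (AT2G40080), the small partner of ELF3, read 171 and 301 on the wild-type arrays and 178 and 302 on the 35S::JMJ30-HA arrays. Both set 2 arrays lay above both set 1 arrays, and within a set the genotypes almost coincided. Mean intensity was 236 ± 92.3 (SD, n = 2) on the wild-type arrays and 239.8 ± 87.9 (SD, n = 2) on the 35S::JMJ30-HA arrays. The genotype difference was 0.058 in set 1 and 0.0041 in set 2 on the log2 scale, and 0.031 ± 0.39 (SE) over both. Its 95% interval ran from -0.97 to 1.03 (limma adjusted p = 1.0). Between the sets ELF4 read 174 ± 4.99 and 302 ± 0.60 (SD, n = 2 each), a log2 difference of 0.79 ± 0.16 (SE) or 1.73-fold.

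LUX (AT3G46640), the DNA-binding subunit, followed the same order at a smaller size. Its model 2 read 148 and 195 on the wild-type arrays and 152 and 201 on the 35S::JMJ30-HA arrays, so set 2 lay above set 1 in both genotypes. The genotype difference was 0.038 ± 0.25 (SE) on the log2 scale, with an interval from -0.61 to 0.68 (limma adjusted p = 1.0). The set difference was 0.40 ± 0.16, with an interval from -0.028 to 0.83. Model 1 of LUX read 85.4 and 100.2 on the wild-type arrays and 91.4 and 107.5 on the 35S::JMJ30-HA arrays, a set difference of 0.23 ± 0.16 in a fit over all 37118 models. Both models therefore ran the same way between the sets, and both read higher on the 35S::JMJ30-HA arrays within each set.

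BOA (AT5G59570), the relative of LUX, ran the other way between the sets. It read 51.6 and 26.4 on the wild-type arrays and 53.2 and 34.9 on the 35S::JMJ30-HA arrays, with both set 2 arrays below both set 1 arrays. Set means were 52.4 ± 1.10 and 30.7 ± 5.97 (SD, n = 2 each), a log2 difference of -0.79 ± 0.18 (SE) with a 95% interval from -1.27 to -0.30. In set 1 the genotypes differed by 0.043 on the log2 scale and in set 2 by 0.40, with the transgenic array the higher. Over both sets the genotype difference was 0.22 ± 0.40, with an interval from -0.79 to 1.24 (limma adjusted p = 1.0).

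GI (AT1G22770) had the widest span of the 8 genes, 1.96 on the log2 scale. It read 116 and 331 on the wild-type arrays and 96.3 and 374 on the 35S::JMJ30-HA arrays. Set 2 was 2.86-fold above set 1 on the wild-type arrays and 3.89-fold above it on the 35S::JMJ30-HA arrays. With 1 array per genotype and set, whether these folds differ was not tested. Set means were 106 ± 13.8 and 353 ± 30.6 (SD, n = 2 each), a log2 difference of 1.74 ± 0.19 (SE) with a 95% interval from 1.23 to 2.25. That set difference was larger in size than those of 99.4% of genes above the valley.

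The genotypes did not order GI in one way. The transgenic array was lower in set 1, by a log2 difference of -0.27, and higher in set 2, by 0.18. Genotype means were 223 ± 152 and 235 ± 197 (SD, n = 2 each), and the log2 difference was -0.044 ± 0.79 (SE), with a 95% interval from -2.07 to 1.98 (limma adjusted p = 1.0). In the replicate block fit, the SE of GI was 0.19 and the interval ran from -0.55 to 0.46 (adjusted p = 0.999), and no call changed for any of the 8 genes. Leaving out single arrays gave differences between -1.02, when the second transgenic array was dropped, and 0.94, when the first was, since 1 set then holds a single genotype.

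Among the F-box genes, ZTL (AT5G57360) was steady. Its model 2 read 504 and 471 on the wild-type arrays and 482 and 546 on the 35S::JMJ30-HA arrays, with both genotypes and both sets overlapping. The genotype difference was 0.074 ± 0.19 (SE) on the log2 scale, from -0.41 to 0.56 (limma adjusted p = 1.0), and the set difference was 0.042 ± 0.18. Model 1 of ZTL read 258 and 250.3 on the wild-type arrays and 213 and 292 on the 35S::JMJ30-HA arrays, with a genotype difference of -0.029 ± 0.23. Its sign was thus opposite to that of model 2, with both values far inside their error.

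FKF1 (AT1G68050), which with GI removes CDF proteins in the afternoon of long days, had the largest genotype difference in size among the 8 genes. It read 384 and 578 on the wild-type arrays and 335 and 426 on the 35S::JMJ30-HA arrays. Within each set the transgenic array was the lower, with a log2 difference of -0.20 in set 1 and one of -0.44 in set 2. Over all arrays the genotypes overlapped, because the transgenic array of set 2 lay above the wild-type array of set 1. The difference was -0.32 ± 0.28 (SE), with an interval from -1.03 to 0.39 (limma adjusted p = 1.0). It was larger in size than those of 93.2% of genes above the valley, yet it passed no test here (adjusted p = 0.89 with the replicate block). It ran from -0.61 (without wild-type replicate 1) to -0.027 (without wild-type replicate 2). Between the sets FKF1 differed by 0.47 ± 0.17 on the log2 scale, as 0.59 in wild type and 0.35 in the transgenic seedlings. Without single arrays, in a fit on the replicate number alone, it ran from 0.25 (wild-type replicate 2 left out) to 0.69 (transgenic replicate 2 left out).

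LKP2 (AT2G18915), the third gene of the family, read 184 and 172 on the wild-type arrays and 136 and 192 on the 35S::JMJ30-HA arrays. The lowest value came from the transgenic array of set 1, and the other 3 arrays lay within 172 to 192. The genotype difference was -0.44 in set 1 and 0.16 in set 2 on the log2 scale, and -0.14 ± 0.24 (SE) over both, from -0.75 to 0.47 (limma adjusted p = 1.0). The set difference was 0.20 ± 0.21, -0.097 on the wild-type arrays and 0.50 on the 35S::JMJ30-HA arrays. Taken over the 8 genes, ELF4, LUX and BOA read higher on the 35S::JMJ30-HA arrays in both sets, FKF1 read lower in both, and ELF3, GI, ZTL and LKP2 differed in sign between the sets. Of all genes, 50.2% kept one sign, so 4 of 8 is near the background.

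**Figure D2:**
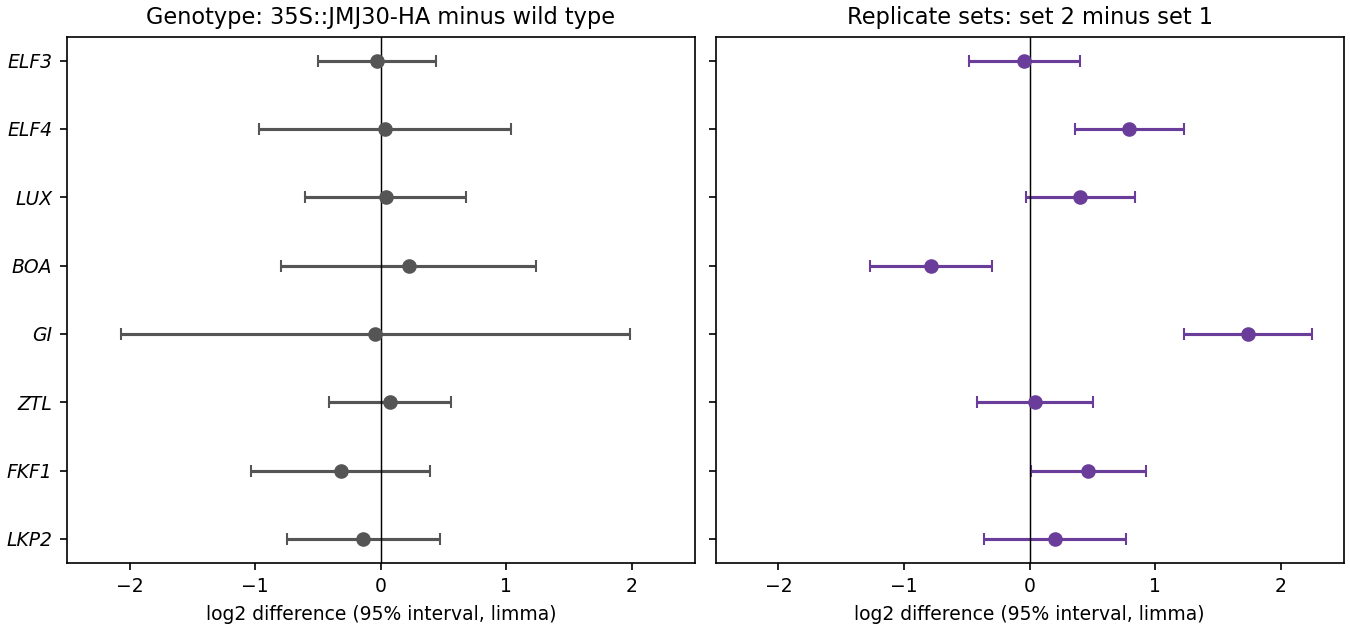
Log2 differences of the 8 genes with their 95% limma intervals, for 35S::JMJ30-HA minus wild type (left) and for set 2 minus set 1 with genotype in the fit (right). All 8 genotype intervals cross 0, while the set intervals of ELF4, BOA, GI and FKF1 do not. Intervals on the left have genotype as the only term and count the gap between the sets as spread. With the replicate number in the fit, all 8 genotype intervals still cross 0. The intervals are before adjustment, and limma called none of the 8 set differences over all genes.

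The replicate sets were also compared, which the study did not set out to do, with a wide gap between the sets already known from earlier results of these data. As a description, the set difference was larger in size than the genotype difference for 7 of 8 genes, the exception being ZTL. Among genes above the valley the same held for 70%. GI, ELF4, LUX and FKF1 had both set 2 arrays above both set 1 arrays, and BOA had both below. Of all genes, 25.5% were separated in the higher direction and 23.2% in the lower, and of genes above the valley 58% in either, so 5 of 8 is near the background. In size, the median set difference without its sign was 0.44 for the 8 genes and 0.19 for genes above the valley.

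In limma with genotype and replicate number as terms, 0 of the 8 genes passed an adjusted p below 0.05 between the sets, where 4 of 32627 genes (0.0123%) did, all 4 lower in set 2. GI came closest, at an adjusted p of 0.0929, followed by ELF4 at 0.185 and BOA at 0.204 in limma. At an unadjusted p under 0.05, GI, ELF4, BOA and FKF1 were found, against 15.5% of all genes. The call for 3 genes depends on the genes and scale tested. Among genes above the valley alone, limma gave adjusted p-values of 0.0022 for GI, 0.015 for ELF4 and 0.023 for BOA, and the count over all genes rose from 4 to 1825. On the scale log2(value + 16) the adjusted p-values were 0.0048, 0.013 and 0.034 in limma. Directions of GI, ELF4, LUX, BOA and FKF1 between the sets were the same under every alternative run with all arrays. Leaving out single arrays could not change them, because the arrays of the sets did not overlap for these genes. What made the sets differ was not tested.

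**Figure D3:**
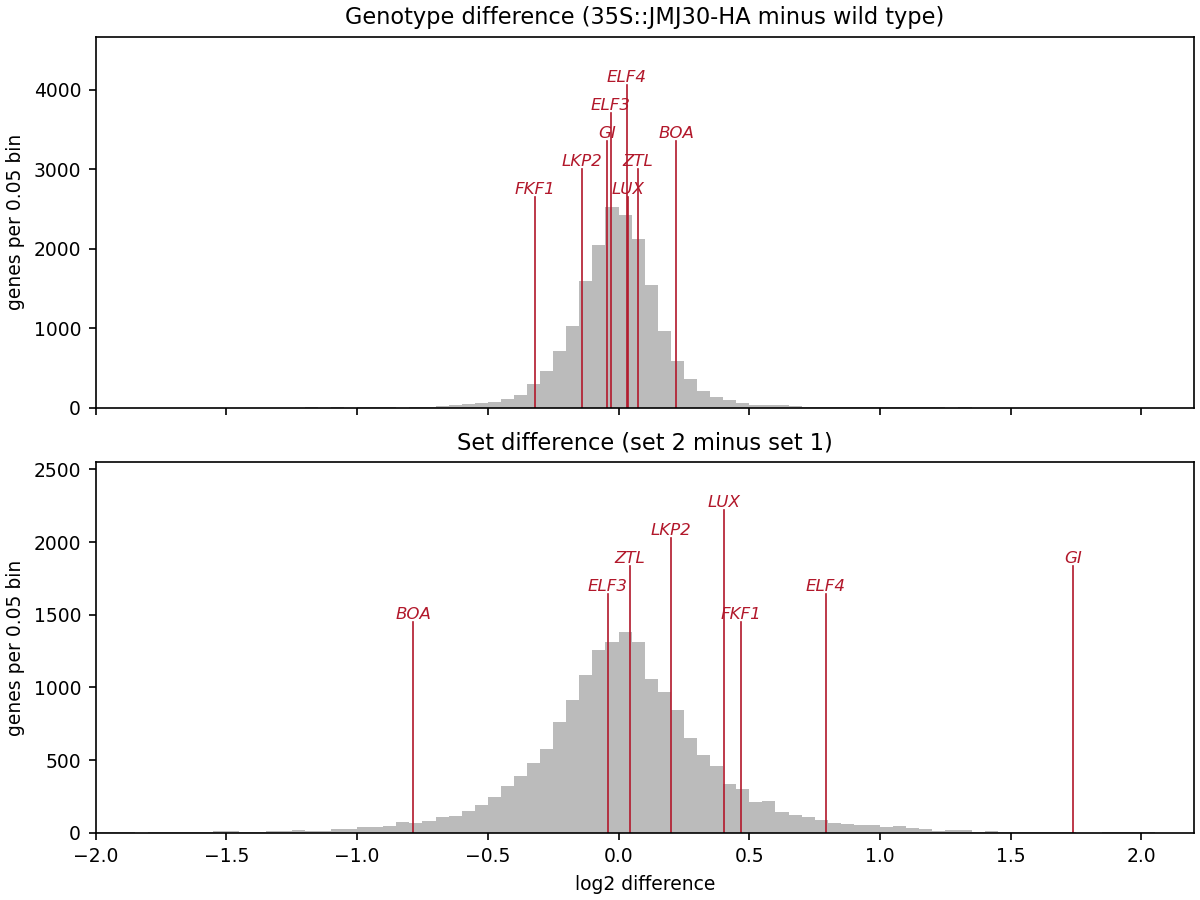
Number of genes above the valley per bin of 0.05 in the log2 difference between genotypes (top) and between sets (bottom), with red lines at the 8 named genes and the axis cut at -2 and 2.2. GI at 1.74 stands far out on the right in the lower panel. ELF4 at 0.79 and BOA at -0.79 lie nearer the bulk, larger in size than 94.4% and 94.3% of genes above the valley. All 8 genes lie between -0.32 and 0.22 in the upper panel.

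By the distance between log2 values centred over the 4 arrays, the genes most like GI were TZP (distance 0.089), AT2G20721 (0.13) and AT1G78070 (0.15), out of 17782 genes above the valley. TZP read 53.8 and 157 on the wild-type arrays and 43.1 and 164 on the 35S::JMJ30-HA arrays. In all, 50 genes lay within a distance of 0.5 of GI. Of the other 7 pathway genes ELF4 was the nearest, at 0.98, and 434 genes lay closer than that. With 4 arrays such a likeness is a description only.

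Genes that act next to the 8 were read from lists by role, and none of their members was called between the genotypes over all genes. The 4 target genes of the evening complex (PRR9, PRR7, PIF4 and PIF5) had mean log2 differences from -0.24 to -0.014 between the genotypes, with a median of -0.095. Only PRR7 read lower on the 35S::JMJ30-HA array in both sets, while PRR9, PIF4 and PIF5 read lower in 1 set and higher in the other. PRR7, a pseudo-response regulator of the morning, read 496 and 893 on the wild-type arrays and 396 and 799 on the 35S::JMJ30-HA arrays. Its genotype difference was -0.24 ± 0.45 (SE). Genotype SEs of the listed genes count the gap between the sets as spread, whereas set SEs come from the fit with both terms. In that fit the genotype SE of PRR7 was 0.17. PRR9, a relative of PRR7, had a mean below the valley, at 7.75 and 20.8 on the wild-type arrays and 8.76 and 15.0 on the 35S::JMJ30-HA arrays. All 4 had both set 2 arrays above both set 1 arrays, where 25.5% of all genes did, with set differences from 0.37 to 1.10 and a median of 0.84.

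The 6 substrates of the ZEITLUPE family split by gene. TOC1, the clock protein that ZTL marks for degradation, read 673 and 707 on the wild-type arrays and 537 and 700.0 on the 35S::JMJ30-HA arrays, a genotype difference of -0.17 ± 0.22 (SE) on the log2 scale. TCP21, also called CHE, read 449 and 336 on the wild-type arrays and 482 and 412 on the 35S::JMJ30-HA arrays, a difference of 0.20 ± 0.23. Of the 6 genes 4 had a mean log2 difference below 0 and 2 above 0, with a median of -0.16. Among all 32627 genes, 16579 had a difference below 0. The genotypes overlapped for all 6 substrates. The largest set differences belonged to CDF1 at 1.95 ± 0.17 and CDF3 at 1.71 ± 0.16, repressors of CO that were picked out after their values were seen. CDF1 read 23.1 and 82.2 on the wild-type arrays and 19.1 and 79.9 on the 35S::JMJ30-HA arrays, so it ran with GI between the sets, whereas CDF2 had a set difference of -0.18 ± 0.21.

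The 3 photoperiod outputs had set differences from -0.41 to 0.23 on the log2 scale. CO read 35.7 and 43.4 on the wild-type arrays and 60.4 and 46.8 on the 35S::JMJ30-HA arrays. The genotypes did not overlap, with the transgenic arrays the higher, at a genotype difference of 0.44 ± 0.23 (SE) on the log2 scale (limma adjusted p = 1.0) and a set difference of -0.043 ± 0.22. TSF, a relative of FT, read 4.80 and 6.23 on the wild-type arrays and 4.05 and 4.32 on the 35S::JMJ30-HA arrays, and FT read 5.95 and 3.98 against 3.94 and 3.33. Both had means below the valley. The transgenic arrays lay below the wild-type arrays for FT and TSF and above them for CO, so all 3 outputs were separated, in different directions, where 26% of all genes were.

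Among 6 morning regulators, which bind or act at the promoters of evening genes, 5 had a mean log2 difference below 0 between the genotypes, with a median of -0.17 over the 6. The genotypes overlapped for all 6, and 2 read lower on the 35S::JMJ30-HA array in both sets. Among all 32627 genes, 16579 had a mean log2 difference below 0 and 8323 read lower in both sets. CCA1, a repressor of evening genes, read 10.3 and 16.3 on the wild-type arrays and 14.4 and 19.7 on the 35S::JMJ30-HA arrays, a genotype difference of 0.37 ± 0.31 (SE). RVE4 read 244 and 247 on the wild-type arrays and 246 and 194 on the 35S::JMJ30-HA arrays, a difference of -0.17 ± 0.21. LNK1, a coactivator named after its values were seen, had the largest set difference of all listed genes, at 2.93 ± 0.21, with 26.2 and 164 on the wild-type arrays and 19.0 and 177 on the 35S::JMJ30-HA arrays. LHY ran the other way between the sets, at -0.66 ± 0.17.

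The core of the SCF ligase, which the F-box proteins need, was level across the arrays. SKP1, ASK2, CUL1 and RBX1 had genotype differences from -0.054 to 0.057 and set differences from -0.086 to 0.077 on the log2 scale. CUL1, the scaffold, read 614 and 592 on the wild-type arrays and 605 and 557 on the 35S::JMJ30-HA arrays. RBX1, the RING subunit, read 288 and 294 on the wild-type arrays and 290.0 and 316 on the 35S::JMJ30-HA arrays. The light-signalling partners PHYB and COP1 had genotype differences of -0.037 ± 0.40 and -0.10 ± 0.33 (SE). With the replicate number in the fit, their genotype SEs were 0.16 and 0.17. Set differences in that fit were 0.80 ± 0.16 and 0.62 ± 0.17. PHYB, a red-light receptor, read 199 and 346 on the wild-type arrays and 194 and 337 on the 35S::JMJ30-HA arrays. COP1, a ubiquitin ligase that acts with ELF3 on GI, read 126 and 204 on the wild-type arrays and 123 and 181 on the 35S::JMJ30-HA arrays.

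Of the 4 ELF4-like genes only ELF4-L2 had a mean above the valley. It read 188 and 142 on the wild-type arrays and 182 and 139.9 on the 35S::JMJ30-HA arrays, a set difference of -0.39 ± 0.16 (SE) on the log2 scale, opposite in sign to that of ELF4. ELF4-L1 read 3.89 to 5.81 and ELF4-L3 read 4.55 to 7.62 over the 4 arrays. Mean set differences of the 4 ELF4-like genes ran from -1.03 to -0.040, with a median of -0.34. ELF4-L2 and ELF4-L4 had both set 2 arrays below both set 1 arrays, as 23.2% of all genes had, and the arrays of ELF4-L1 and ELF4-L3 overlapped.

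**Figure D4:**
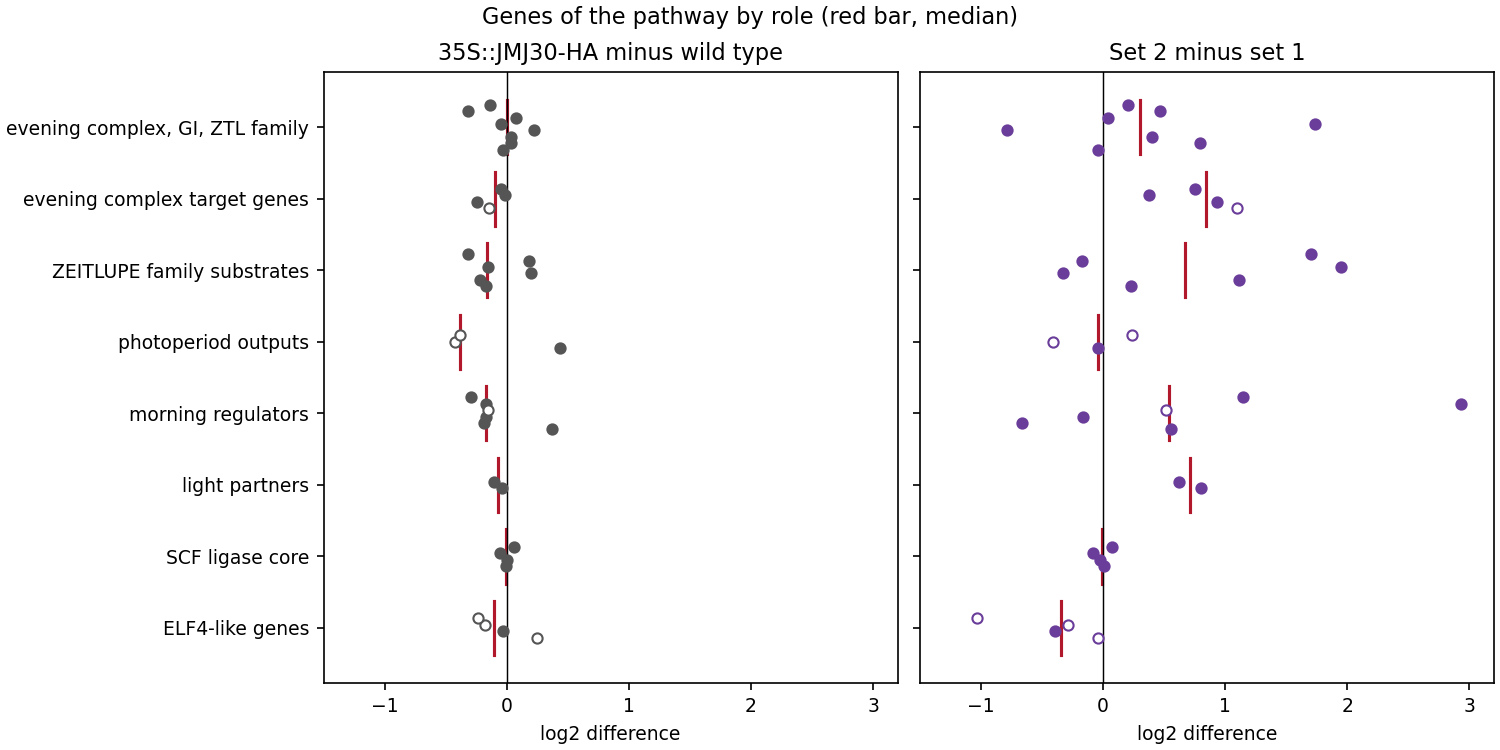
Log2 differences of the 8 genes and of 7 lists of related genes, 1 point per gene, for 35S::JMJ30-HA minus wild type (left) and set 2 minus set 1 (right). Open points are genes with a mean below the valley and red bars are medians, which reach 0.84 between the sets for the 4 evening complex target genes and -0.0067 for the 4 SCF genes.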

How the data were processed

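The deposited values are 1 intensity per transcript model and array. RMA, a method that corrects background, normalises arrays and summarises probes, is the tool listed in the submitters' processing notes. The sources used here give no version, genome build or probe map. RMA output is commonly log2, but the deposited intensity values run from 1.50 to 4400 and none is at or below 0, so the scale was read as linear, and log2 was taken without a pseudocount. The data used here hold no background or detection value per model, so the valley of the distribution describes a level only. Differences were computed with limma 3.58.1 in R 4.3.3 (lmFit, eBayes, two-sided, Benjamini-Hochberg over 32627 genes, threshold 0.05). The genotype was the only term, and the replicate number was added for the sets. Both steps were run on simulated data with known differences put in. The simulated genotype data held no gap shared by the arrays of a set. That run therefore does not show how the genotype fit behaves on these arrays. Figures were drawn with matplotlib 3.10.9.

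The replicate numbers were taken as pairs from the design text. Deviations from the genotype means correlated at 0.42 over all genes and at 0.68 over genes above the valley. Symbols came from the RefSeq table of TAIR10.1, which holds 31993 of the locus codes. Of 48 listed genes 46 were used, and 2 were left out because the table names neither. Always named were the 8 genes and JMJ30, and the 3 genes nearest to the most variable member. In each pathway list where none was called, the 2 with the largest absolute moderated t were named. The marker lists did not follow this rule, and some further list members were named beside it. The members and lists were chosen with earlier results of these data known. Alternatives were the replicate block, other models, log2(value + 16), genes above the valley, quantile normalisation, median centring, trend and robust settings and single arrays left out. Sequences and coordinates were not used here.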

Additional observations from a re-analysis of the deposited data

How the results depend on the processing

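No gene of the 8 was called between genotypes under any alternative run. With the replicate block the lowest adjusted p among them was 0.89 (FKF1), and the pairing changed no call. The count over all genes was 0, except 1 when the threshold was 0.10, 1 with eBayes in its trend and robust form, and 3 when the replicate block was restricted to genes above the valley, the last chosen after seeing the data. It was 0 to 0 without single arrays. The median of the 8 then ran from -0.26 to 0.14. Without single arrays the genotype differences ran from -0.088 to 0.028 for ELF3, -0.38 to 0.44 for ELF4, -0.17 to 0.24 for LUX, -0.26 to 0.70 for BOA, -1.02 to 0.94 for GI, -0.016 to 0.16 for ZTL and -0.39 to 0.11 for LKP2, so all 7 changed sign. A set then holds 1 genotype. Model 1 of ZTL gave -0.029.

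Between the sets the count of 4 genes became 0 with the mean of models, 0 with quantile normalisation, 1847 with log2(value + 16), 1825 above the valley and 3553 with trend and robust settings. That last fit gave an infinite prior df on 1 residual df, and it called GI (1.74), ELF4 (0.79), BOA (-0.79), LUX (0.40) and FKF1 (0.47). With log2(value + 16), GI (1.60), ELF4 (0.74) and BOA (-0.56) were called, and above the valley the same 3 genes. Chosen after seeing the data, the replicate number as the only term gave 87 genes, and 0 to 0 without single arrays. Set differences then ran from -0.094 to 0.0097 for ELF3, -0.018 to 0.42 for LKP2 and -0.064 to 0.15 for ZTL, from 0.25 to 0.69 for FKF1, and from 1.60 to 1.87 for GI.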
